A study of Mus musculus with 2 samples.

Results

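The mitochondrial carrier family SLC25 was examined as it appears in the open chromatin of induced erythroid cells. The members were all protein-coding genes of the GENCODE mouse annotation (mm10) whose symbol starts with Slc25a, 47 of 21853 protein-coding genes. Slc25a37, Slc25a38 and Slc25a39 were set against the other 44 members. Regions of open chromatin had been mapped by ATAC-seq, in which a transposase cuts accessible DNA, in 2 libraries of 50000 G1E-ER4 cells each, which the labels call biological replicates without saying whether the cultures were separate. G1E-ER4 is a male C57BL/6J mouse line of erythroid cells in which GATA1 activity is restored as a fusion to the estrogen receptor, and the cells of both libraries had received 17beta-estradiol at 10 nM, with 24 hours of exposure. Both therefore carry the fusion and the hormone, there is no untreated group, and the data come from 1 cell line, so no change upon induction can be measured.

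SLC25 proteins sit mostly in the inner mitochondrial membrane and exchange or import metabolites, nucleotides, cofactors and ions between the cytosol and the matrix. Erythroid cells depend on several of them because heme synthesis begins and ends in the matrix: iron enters through mitoferrin (Slc25a37, with its paralog Slc25a28), glycine for the first step enters through Slc25a38, and Slc25a39 imports glutathione. Loss of Slc25a38 in humans causes a congenital sideroblastic anemia.

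A promoter region was a region of the authors' conservative list with any base within 1 kb of a transcription start site (TSS) of a protein-coding transcript of the gene. A distal region had its summit over 1 kb from every protein-coding TSS and lay within 50 kb of the gene body. The conservative list holds the regions that passed an irreproducible discovery rate (IDR) threshold between the true replicates. Each library also has its own list, thresholded by IDR. A region called in a replicate overlaps a region of that library's own list. Absence from that list does not show that the library lacked the region. Signal is the authors' value per peak. No label or header states its scale, so signals are ranked only within a list.

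Sequences with a GATA motif at the carriers of iron, glycine and glutathione Slc25a28, Slc25a37, Slc25a38 and Slc25a39 are given first, since the motif is the element GATA1 binds. A region of Slc25a38 at 6.08 kb is left out because its window touches an exon. Each is the plus strand of mm10 (RefSeq GRCm38.p6) centred on a summit, 201 bases long, or 101 bases where the longer stretch would touch an exon. Capitals mark a GATA motif on either strand, which was searched as the word AGATAA or its close form AGATAG, and with another first base as TGATAA or else TGATAG. For the composite, an arrangement bound by GATA1 together with TAL1, they mark the whole span, which is CTG followed by 8 or 9 bases and a GATA motif. A motif match is a description of letters and not a measured binding site.
Slc25a28 at −0.154 kb, promoter, chr19:43674935-43675135: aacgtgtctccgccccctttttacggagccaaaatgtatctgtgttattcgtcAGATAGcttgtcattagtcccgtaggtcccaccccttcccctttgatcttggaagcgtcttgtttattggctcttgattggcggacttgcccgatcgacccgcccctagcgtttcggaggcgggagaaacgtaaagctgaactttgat
Slc25a37 at 8.63 kb, own intron, chr14:69276377-69276577: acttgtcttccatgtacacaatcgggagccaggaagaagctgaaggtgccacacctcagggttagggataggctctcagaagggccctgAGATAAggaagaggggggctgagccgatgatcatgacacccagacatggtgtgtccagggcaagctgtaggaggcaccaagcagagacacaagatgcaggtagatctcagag
Slc25a37 at −19.8 kb, chr14:69304852-69305052: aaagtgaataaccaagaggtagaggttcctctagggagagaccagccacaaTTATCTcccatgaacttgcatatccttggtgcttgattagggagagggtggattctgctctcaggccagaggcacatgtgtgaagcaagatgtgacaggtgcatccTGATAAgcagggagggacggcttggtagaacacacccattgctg
Slc25a37 at −33.3 kb, chr14:69318328-69318528: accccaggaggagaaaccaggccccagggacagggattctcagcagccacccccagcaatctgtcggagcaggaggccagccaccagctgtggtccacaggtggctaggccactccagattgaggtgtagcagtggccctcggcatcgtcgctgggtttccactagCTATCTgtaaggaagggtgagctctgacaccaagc
Slc25a37 at −36.9 kb, chr14:69321945-69322145: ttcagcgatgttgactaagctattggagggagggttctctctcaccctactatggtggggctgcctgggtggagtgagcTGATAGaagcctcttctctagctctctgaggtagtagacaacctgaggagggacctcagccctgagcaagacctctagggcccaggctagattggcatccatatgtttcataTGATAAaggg
Slc25a38 at −37.0 kb, chr9:120073266-120073466: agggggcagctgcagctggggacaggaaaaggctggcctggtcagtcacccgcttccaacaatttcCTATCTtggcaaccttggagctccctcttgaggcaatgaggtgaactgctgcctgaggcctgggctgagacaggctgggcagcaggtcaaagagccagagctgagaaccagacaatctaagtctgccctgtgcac
Slc25a38 at 5.38 kb, own intron, chr9:120115656-120115856: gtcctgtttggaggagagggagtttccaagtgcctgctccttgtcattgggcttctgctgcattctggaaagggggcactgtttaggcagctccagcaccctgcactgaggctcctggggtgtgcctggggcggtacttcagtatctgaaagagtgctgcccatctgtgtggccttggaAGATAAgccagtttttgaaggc
Slc25a38 at 30.5 kb, chr9:120140726-120140926: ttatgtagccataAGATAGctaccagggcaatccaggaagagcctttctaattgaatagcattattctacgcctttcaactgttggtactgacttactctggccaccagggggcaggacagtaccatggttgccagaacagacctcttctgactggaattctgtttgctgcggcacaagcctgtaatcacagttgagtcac
Slc25a38 at 47.9 kb, intron of Mobp, chr9:120158126-120158326: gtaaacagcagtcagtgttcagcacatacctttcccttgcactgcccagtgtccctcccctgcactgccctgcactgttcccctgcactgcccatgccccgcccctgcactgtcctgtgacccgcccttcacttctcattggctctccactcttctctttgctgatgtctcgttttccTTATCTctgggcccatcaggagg
Slc25a39 at 44.2 kb, intron of Slc4a1, chr11:102363705-102363805: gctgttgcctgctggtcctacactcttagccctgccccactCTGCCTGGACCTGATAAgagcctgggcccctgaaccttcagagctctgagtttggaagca

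Slc25a37, mitoferrin, had the strongest promoter region of the 3 carriers and 5 distal regions. The gene lies on chromosome 14 at 69241848 to 69285112, minus strand. Its promoter region at chr14:69284902-69285394 had a signal of 17.00 in the conservative list, 15.66 in the list of replicate 1 and 15.25 in that of replicate 2. Its summit stood 38 bp upstream of the TSS, within the unclassified transcript Gm31748, and the signal lay at percentile 77.9 of all 9712 promoter regions. The 100 bases before the TSS, shown on the gene's own strand because the summit lies in them, hold a CCAAT box, in capitals:
Slc25a37 upstream of the start site, chr14:69285113-69285212: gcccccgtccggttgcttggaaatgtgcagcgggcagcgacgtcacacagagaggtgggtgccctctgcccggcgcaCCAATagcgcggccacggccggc

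The distal regions of Slc25a37 fell into an intronic pair and an upstream group. In its own introns, a region at 17.5 kb from the 5′ end had a signal of 12.33 and no GATA motif, and a region at 8.63 kb had a signal of 11.45 and a GATA motif. Upstream, regions stood at −19.8 kb (signal 12.30), at −33.3 kb (8.33) and at −36.9 kb (10.39), and all of these held a GATA motif. The region at −19.8 kb lay in an intron of the noncoding gene Gm27223 and was called in replicate 2 and not in replicate 1. The other 4 were called in both replicates. The nearest protein-coding TSS was that of Slc25a37 for the intronic pair, of Synb for the region at −19.8 kb and of Entpd4 for the farthest pair, so distance alone does not assign the upstream group to Slc25a37. The looser replicated list, which reaches to weaker regions, held 14 distal regions near the gene.

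Slc25a38, the glycine carrier, combined a promoter region of low signal with 6 distal regions. The gene lies on chromosome 9 at 120110374 to 120124504, plus strand. Its promoter region at chr9:120110203-120111002 had a signal of 9.34, with 8.69 in replicate 1 and 9.13 in replicate 2, and its summit stood 26 bp downstream of the TSS. That signal ranked 33rd of the 35 members with a promoter region and lay at percentile 26.0 of all promoter regions. The order depended on the measure: by the authors' −log10 p, 103.9, the same region stood at percentile 66.2, and by its width of 800 bp at percentile 78.0. The 100 bases before the TSS hold an ETS motif (CCGGAAG), in capitals:
Slc25a38 upstream of the start site, chr9:120110274-120110373: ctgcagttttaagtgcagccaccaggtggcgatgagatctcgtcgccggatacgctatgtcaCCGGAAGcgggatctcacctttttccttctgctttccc

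A second promoter region of Slc25a38, at chr9:120115498-120116064 in an intron, had a signal of 7.06 and a GATA motif. It counted as a promoter region because of an internal annotated TSS, 0.906 kb from its summit. A distal region with a GATA motif followed it closely, at 6.08 kb from the 5′ end, with a signal of 8.06. Both replicates called the 2 of them.

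The other distal regions of Slc25a38 were nearer to other genes, and 1 of these 5 was called in both replicates. Regions at −37.0 kb (signal 9.75, GATA motif) and 30.5 kb (12.90, GATA motif) were called in replicate 1 only. The region at 47.9 kb, in an intron of Mobp, had a signal of 12.76 and a GATA motif and was called in both. Regions at −11.5 kb (11.80) and 61.1 kb (7.63) held no GATA motif and were in neither replicate's own list. The nearest TSS of these 5 belonged to Cx3cr1, Ccr8 or Mobp.

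Slc25a39, the glutathione carrier, had 1 promoter region and 2 distal regions, all called in both replicates. The gene lies on chromosome 11 at 102402985 to 102407946, minus strand. Its promoter region at chr11:102408369-102408878 had a signal of 15.17, with 13.61 in replicate 1 and 13.69 in replicate 2, at percentile 66.3 of promoter regions. The summit stood 640 bp upstream of the nearest TSS, whereas the best summit was within 200 bp of a TSS in 28 of 35 members (80.0%) and in 7543 of 9244 genes with a promoter region (81.6%). Its distal regions stood at 32.6 kb (signal 13.98) and at 44.2 kb (signal 11), the latter in an intron of Slc4a1, the red cell anion exchanger, and with the composite shown above. Slc4a1 had the nearest TSS for both.

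**Figure D1:**
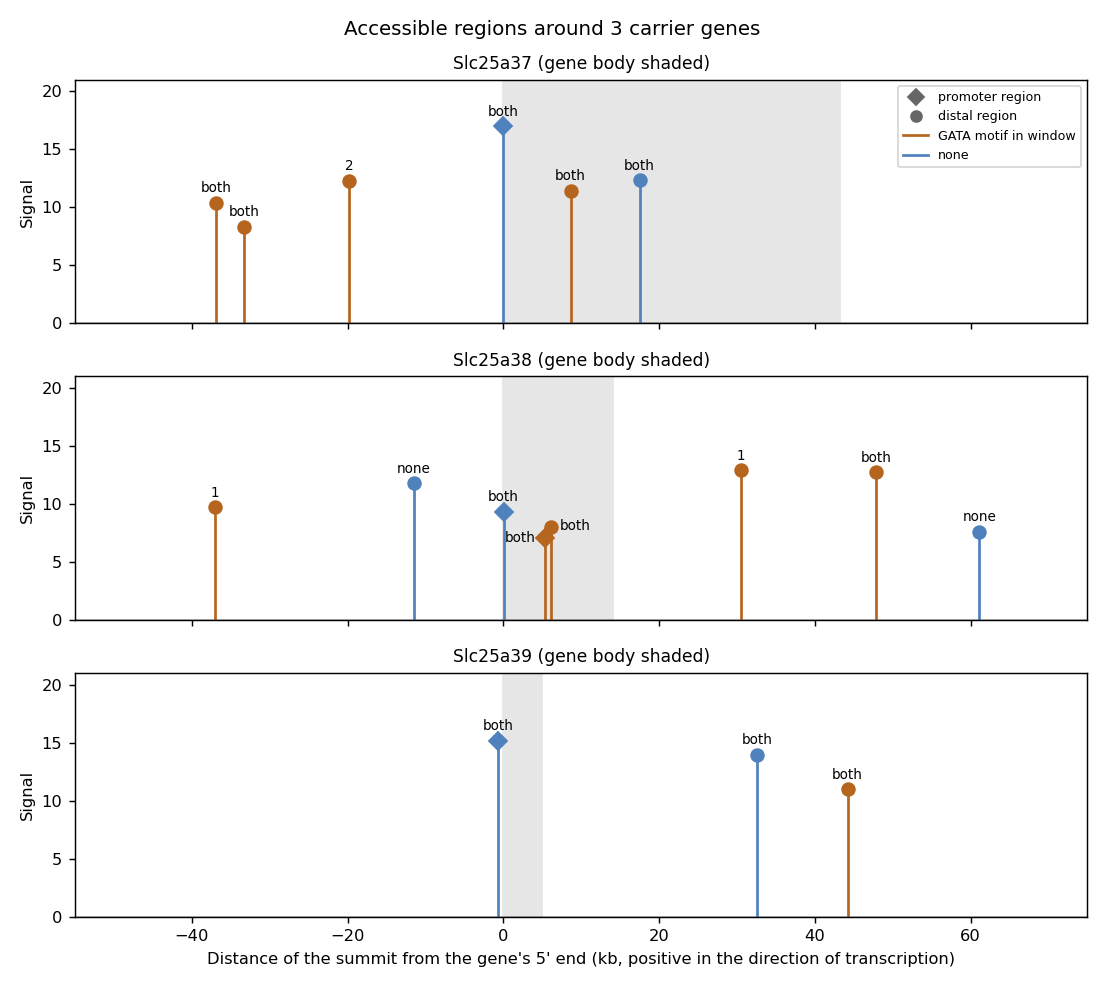
Accessible regions around Slc25a37, Slc25a38 and Slc25a39, by distance of the summit from the 5′ end of the gene in kb (x axis) and signal in the authors' units (y axis), with the gene body shaded. Diamonds are promoter regions and circles distal ones, brown marks a GATA motif within 100 bp of the summit, and the text over each gives the replicate lists that held it. Slc25a37 has 4 brown circles, 3 of them upstream of the gene, and the 2 distal regions of Slc25a39 lie beyond its 3′ end.

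The map of these 3 loci shows the GATA motif in 9 of their 13 distal regions (69.2%), against 23 of 57 distal regions of the other members (40.4%) and 50.9% of all 10583 distal regions. No test was made, because the members were chosen with these data known and regions of a locus are not replicates. Over all members, 32 of 70 distinct distal regions (45.7%) held the motif and 4 (5.71%) the composite, against 10.7% of all distal regions for the composite. By share of regions the family was thus not above the background for either. Counts by gene, given with the distal regions, were higher for the GATA motif, as were counts of genes with any distal region.

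Of the 47 members, 35 (74.5%) had a promoter region, where 42.3% of all protein-coding genes did. In the list of replicate 1 the count was 32 (68.1%) against 38.8% of genes, and in that of replicate 2 it was 35 (74.5%) against 39.9%, or 71.3% ± 4.51 over the replicates (SD, n = 2). The share of members was above that of all genes in each list. The SD describes how far the replicate lists differed for the same 47 genes, and not the uncertainty of a share of 47 genes. Among the members other than Slc25a37, Slc25a38 and Slc25a39, 32 of 44 (72.7%) had one. The lists come from bulk libraries, so an opening in fewer cells and a weaker opening in each cell cannot be told apart.

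By role, a promoter region stood at every carrier of iron (2 of 2), of glycine, glutathione and S-adenosylmethionine (4 of 4), of nucleotides and cofactors (8 of 8) and of carboxylates (4 of 4). Carriers of amino acids and carnitine had one in 7 of 9 and carriers of ADP, ATP and phosphate in 5 of 9. The genes similar to uncoupling proteins had one in 2 of 3. The remaining members, most of them carriers of less certain substrate, had one in 3 of 8. Over all genes the share was 42.3%, or 69.5% at a CpG ratio (defined below) of 0.6 or more and 13.5% under it. The 6 members with a ratio of 0.2 to 0.4 were all among the amino acid, the ADP/ATP and the remaining members. Whether the roles differ apart from CpG content was not tested.

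In several roles the members with and without a promoter region were close paralogs. Slc25a4 and Slc25a5, the ADP/ATP carriers, had one, and Slc25a31, the carrier known from the testis, had none. The ornithine carrier Slc25a15 had one and its paralog Slc25a2 none, and the glutamate carrier Slc25a22 had one and its paralog Slc25a18 none. Among the Mg-ATP and phosphate carriers, Slc25a23 and Slc25a25 had one and Slc25a24 and Slc25a41 none. Slc25a27, Slc25a34, Slc25a43, Slc25a45, Slc25a47, Slc25a48 and Slc25a54 also had none.

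Of the 12 members without a promoter region, 8 had distal regions only, and 4 had no region of either kind: Slc25a24, Slc25a27, Slc25a48 and Slc25a54. In the looser replicated list only Slc25a45 gained a promoter region, with a signal of 4.43. In the ranked list of both libraries before thresholding, the global IDR at the Slc25a45 promoter was 0.513.

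The 35 promoter regions had a median signal of 16.87 (7.10 to 22.41), against 13.94 over the 9244 genes with one, taking the strongest region of each gene. The signal was above that median in 25 of the 35 members (71.4%). In replicate 1 the medians were 15.17 for 32 members and 12.74 for all genes, and in replicate 2 they were 14.22 for 35 members and 12.94 for all genes. The members' median was higher in each of the 3 lists. The median width was 628 bp for members and 645 bp for all genes.

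The promoter regions of highest signal were spread over roles. Slc25a33, a pyrimidine nucleotide carrier, led with a signal of 22.41 (replicates 19.33 and 16.79), percentile 97.3 of promoter regions. Slc25a17, the peroxisomal cofactor carrier, followed with 21.95 (19.08 and 18.87), and Slc25a29, a carrier of basic amino acids, with 20.86 (18.13 and 19.50). These 3 did not keep their order in replicate 2, where Slc25a29 was highest.

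Next came Slc25a30, similar to uncoupling proteins, with 19.74 (17.71 and 17.94), and Slc25a20, the carnitine and acylcarnitine carrier, with 19.30 (14.02 and 16.99). Slc25a26, which imports S-adenosylmethionine, had 19.02 (15.38 and 17.42). Slc25a4, an ADP/ATP carrier, had 18.87 (16.53 and 15.61) and Slc25a53 had 18.68 (15.25 and 15.99). The order of these 2 was reversed in replicate 2.

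Slc25a37 (17.00) ranked 16th of the 35 and Slc25a39 (15.17) 21st. Slc25a28, the second mitoferrin, stood between them at 19th with 15.85 (15.07 and 13.82), and its promoter region held a GATA motif. By signal, 15 members exceeded Slc25a37. The order of the family depended on the measure: by the −log10 p of the same regions, 7 members exceeded Slc25a37 (139.5), Slc25a39 (105.7) ranked 13th and Slc25a38 (103.9) 14th. Slc25a33, the highest by signal, ranked 17th with 97.2, and the phosphate carrier Slc25a3 was highest with 204.6.

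At the low end, Slc25a21, the oxodicarboxylate carrier, had 7.10, and its replicates marked different regions. Of its 2 promoter regions, that upstream of the TSS was called in replicate 1 (7.27) and that downstream in replicate 2 (6.99), and both held a GATA motif. Slc25a10, the dicarboxylate carrier, had 8.76, Slc25a40, the paralog of Slc25a39, had 9.52 (8.52 and 9.03), and Slc25a11, the oxoglutarate and malate carrier, had 9.59 (9.65 and 8.86). With Slc25a38 at 9.34, the order of Slc25a38, Slc25a40 and Slc25a11 in the conservative list was kept in neither replicate's list.

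The promoter regions of Slc25a10, Slc25a16 and Slc25a22 were called in replicate 2 and not in replicate 1. Slc25a10 had a signal of 7.23 in replicate 2, and Slc25a16, a carrier linked to coenzyme A, had 11.80 in the conservative list and 9.48 in replicate 2. Slc25a22 had 11.18 and 10.54. All were present in the ranked list of replicate 1 before thresholding, with signals of 8.35, 7.32 and 7.67 and global IDRs of 0.139, 0.269 and 0.0721.

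**Figure D2:**
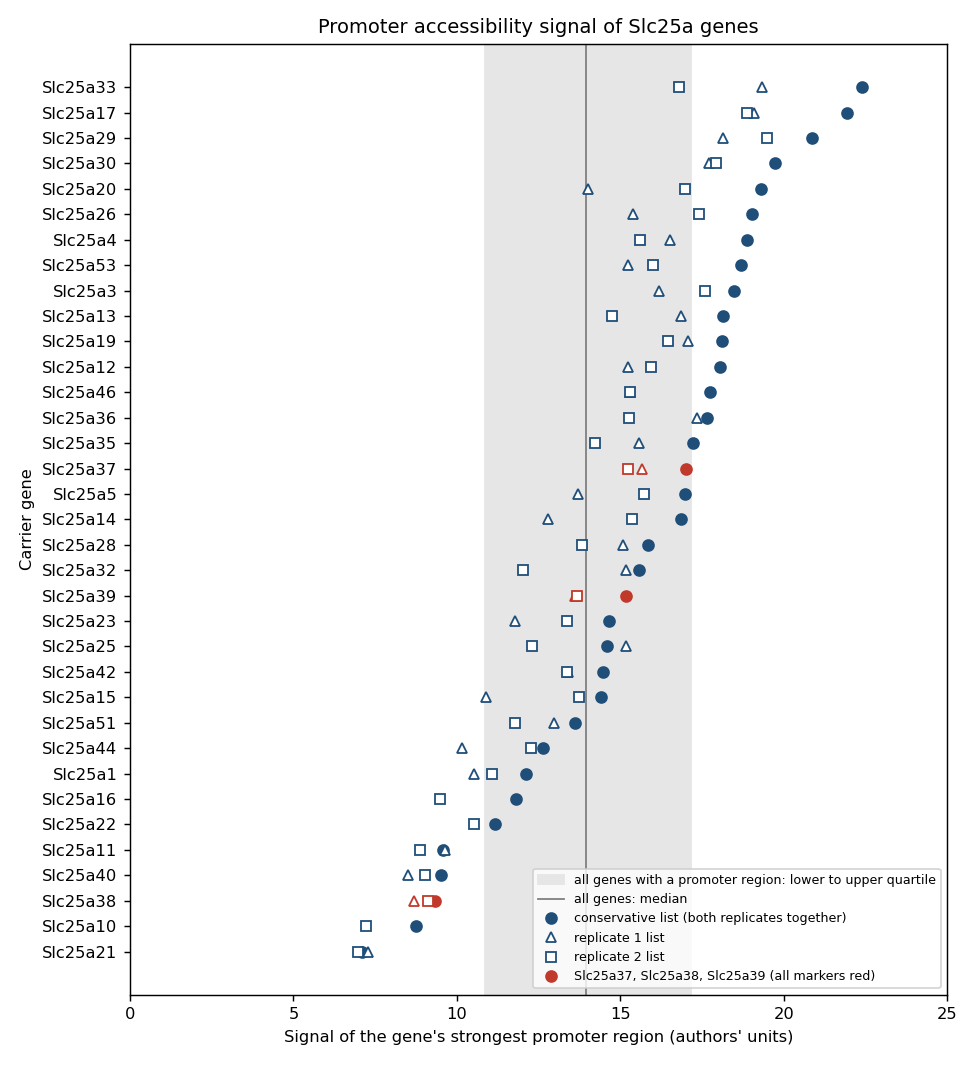
Signal of the strongest promoter region of each of the 35 members that have one (x axis, authors' units), from the conservative list (filled circles) and each replicate's own list (triangles, replicate 1, and squares, replicate 2). The shaded band is the lower to upper quartile of all 9244 genes with a promoter region and the line their median, 13.94. Slc25a37 and Slc25a39 (red) lie above that line in the conservative list and Slc25a38 (red) at 9.34 lies below the band.

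Promoter calls went with the CpG content around the TSS, measured as the observed over expected CpG ratio in 1001 bp and taken at the TSS with the highest value. Of 33 members with a ratio of 0.6 or more, 30 (90.9%) had a promoter region, where 69.5% of such genes did. Of 14 members under 0.6, 5 (35.7%) had one, where 13.5% of such genes did. The share of members was above that of all genes in both classes. The class of high ratio held 70.2% of the members and 11238 of all 21853 genes. The low class was not alike in make-up. It held no member under 0.2, where 2.04% of 4068 genes had a promoter region. From 0.2 to 0.4, 0 of 6 members had one, below the 8.65% of genes, and from 0.4 to 0.6, 5 of 8 had one, against 35.4%.

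The median ratio was 0.750 in members with a promoter region and 0.427 in those without, against 0.614 over all genes. Slc25a37 had a ratio of 0.750, Slc25a38 of 0.861 and Slc25a39 of 0.918. Exceptions, singled out after their values were seen, ran both ways. Slc25a31 (0.753), Slc25a27 (0.706) and Slc25a48 (0.616) had no promoter region despite a high ratio, and Slc25a17, with a ratio of 0.470, had the second highest promoter signal of the family.

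**Figure D3:**
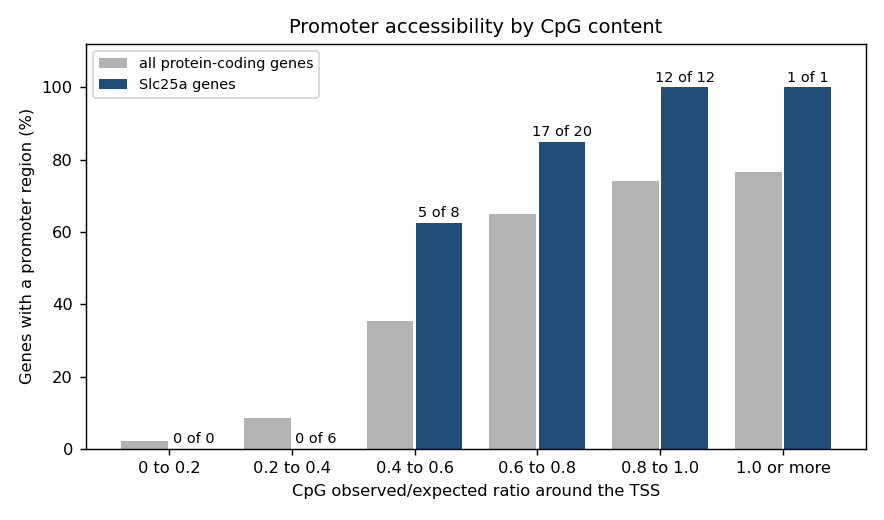
Share of genes with a promoter region (y axis, percent) by CpG observed over expected ratio around the TSS (x axis), for all protein-coding genes (grey) and Slc25a genes (blue, with counts). All 12 members with a ratio of 0.8 to 1.0 had one, and none of the 6 members from 0.2 to 0.4 did.

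Of the 45 distinct promoter regions of members, 33 (73.3%) held the SP motif GGGCGG, 23 (51.1%) a KLF motif and 23 (51.1%) the NF-Y motif CCAAT, against 60.8%, 40.8% and 37.0% of all promoter regions. The KLF motif was searched as CCGCCCC or the erythroid CACCC element, so its GC-rich form overlaps the SP motif. The ETS motif stood in 9 (20%), against 19.0%. The motif of NRF1, a regulator of many mitochondrial genes, was found in 0 of the 45 windows and in 11.1% of all promoter regions, which says only that these letters are not within 100 bp of those summits.

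A GATA motif stood in 9 of the 45 promoter regions (20%), against 13.8% of all promoter regions. The composite stood in 1 of the 45 (2.22%), near its share of 1.75% over all promoter regions. That region, named after the match was seen, belonged to the citrate carrier Slc25a1.

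A TSS of another protein-coding gene on the opposite strand lay within 1 kb at 8 members (17.0%), against 11.4% of genes. Of these 8, 7 had a promoter region, where 74.5% of all members and 42.3% of all genes did. The share with a promoter region among all genes with such a neighbour was not computed. The 7 were Slc25a11 with Rnf167, Slc25a23 with Crb3, Slc25a25 with Naif1, Slc25a32 with Dcaf13, Slc25a40 with Dbf4, Slc25a46 with B930094E09Rik and Slc25a53 with Zcchc18. Every promoter region of Slc25a11, Slc25a32, Slc25a40 and Slc25a46, and 1 of the 3 of Slc25a25, also lay within 1 kb of the neighbour's TSS, so these cannot be assigned to one gene of the pair. The promoter regions of Slc25a23 and Slc25a53 did not. Slc25a27, with Cyp39a1, had none.

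Distal regions were found near 35 of the 47 members (74.5%), where 50.6% of all protein-coding genes had one. The count was 20 (42.6%) in the list of replicate 1, against 36.2% of genes, and 26 (55.3%) in that of replicate 2, against 40.8%. The mean number per member was 1.64, against 1.19 per gene, and the median was 1 for both. In the replicates' own lists the means were 0.830 and 0.915 per member, 0.872 ± 0.0602 (SD, n = 2), against 0.643 and 0.775 per gene. The gene bodies had a median of 21.49 kb in members and 17.38 kb over all genes, with means of 37.86 and 48.98 kb. An effect of gene length or surroundings on these counts was not tested.

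Of the 70 distinct distal regions, 26 (37.1%) were in both replicates' own lists, 6 in that of replicate 1 only, 9 in that of replicate 2 only and 29 (41.4%) in neither. Over all distal regions 42.7% were in both and 32.9% in neither. The nearest protein-coding TSS was that of a member for 19 of the 70 (27.1%), and 16 (22.9%) had their summit in the body of a member. Neighbouring members shared 7 of the regions: Slc25a29 with Slc25a47, Slc25a23 with Slc25a41 and Slc25a5 with Slc25a43.

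A distal region with a GATA motif lay near 24 members (51.1%), against 34.4% of genes. Among those with any distal region it was 24 of 35 members and 7519 of 11061 genes, nearly the same share. Only Slc25a30, Slc25a38 and Slc25a37 had 5 or more distal regions, with 7, 6 and 5. That is 6.38% of the members, near the 5.38% of all genes that had as many. The same 3 genes had 4 regions with a GATA motif each, again 6.38% of the members, where 2.20% of all genes had 4 or more.

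Slc25a30 had the most distal regions, 3 in the list of replicate 1 and 5 in that of replicate 2. They had signals of 5.46 to 11.51, and 3 lay in the neighbouring gene Cog3. One stood in its own intron at 13.4 kb, with a signal of 11.51 and 2 GATA motifs, and was called in replicate 2 only. Slc25a23, a Mg-ATP and phosphate carrier, and Slc25a47 had 4 each. For Slc25a23 the replicates' lists held 3 and 2, and for Slc25a47 they also held 3 and 2.

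Without Slc25a37, Slc25a38 and Slc25a39, the mean over the other 44 members was 1.45 distal regions, of which 0.614 held a GATA motif, against 1.19 and 0.575 over all genes. The 3 carriers had 5, 6 and 2, with 4, 4 and 1 holding the motif. Slc25a28, the second mitoferrin, had 1 distal region, at 43.8 kb, with a signal of 11.29 and no GATA motif, called in replicate 2 only. The mitoferrin pair thus had 5 and 1 distal regions and promoter signals of 17.00 and 15.85, and the 2 measures share no scale. The gene bodies around which regions were counted were 43.27 kb for Slc25a37 and 11.08 kb for Slc25a28. The nearest TSS of the upstream group of Slc25a37 belonged to other genes.

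**Figure D4:**
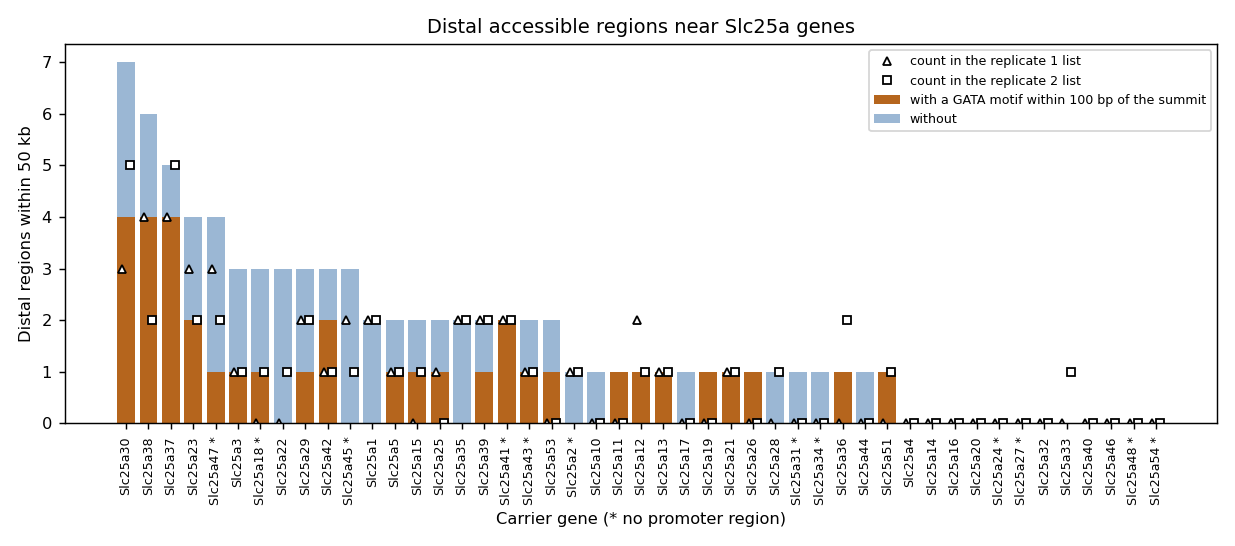
Number of distal regions within 50 kb of each of the 47 members (bars, conservative list), divided into those with (brown) and without (blue) a GATA motif within 100 bp of the summit, with the counts in each replicate's own list as triangles (replicate 1) and squares (replicate 2). Slc25a30, Slc25a38 and Slc25a37 stand at the left with 7, 6 and 5, and 12 members have none in the conservative list.

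Genes that act with the carriers were open to different degrees. All 16 genes of carrier import, the TOM and TIM proteins and Agk that bring carriers to the inner membrane, had a promoter region, with a median signal of 16.76. Over all genes the share was 42.3%, or 69.5% at a CpG ratio of 0.6 or more, and the median signal was 13.94. Tomm5 had the highest (20.77) and Timm8a1 the lowest (7.66), and the latter was in neither replicate's own list. Of 16 partners in heme and iron-sulfur metabolism, 14 had one, with a median of 11.67. The lowest was Abcb10, which stabilizes mitoferrin, at 6.13, called in replicate 1 and not in replicate 2. Alas1 and Alas2, which use the glycine that Slc25a38 imports, had none by this rule. Of the family members under other symbols, Ucp2, Mtch1 and Mtch2 had one, from 7.78 (Ucp2) to 16.68 (Mtch1), and Ucp1 and Ucp3 had none.

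The label of the cells was checked against marker genes. A promoter region stood at 9 of 10 erythroid markers, all but Alas2, with a median signal of 11.20, at 1 of 5 megakaryocyte markers (Pf4) and at 0 of 5 each for B and T cells, myeloid cells and liver. Over all genes the share was 42.3%, and 13.5% at a CpG ratio under 0.6. Each replicate's own list held 8 of the erythroid markers, and Pf4 was in that of replicate 2 only. Distal regions lay near all 10 erythroid markers, but also near 4 of 5 myeloid, 3 of 5 B and T cell, 2 of 5 megakaryocyte and 1 of 5 liver markers, against 50.6% of genes. Read depth is unknown, and the lists held 14012 regions in replicate 1, 15564 in replicate 2 and 20080 in the conservative list.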

How the data were processed

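The authors deposited peak lists on mm10, per the labels, from 2 ATAC-seq libraries of 1 group. For the aligner and the peak caller, nothing is given in the sources used here. The deposited columns used were the signal per peak, its −log10 p and, as a score, the −log10 of the global IDR, which was turned back into an IDR. Read counts are not in these lists, so depth is unknown and no interval was computed. Peaks that overlap were merged, and the summit of highest signal stood for a region. TSSs came from protein-coding transcripts of GENCODE vM21 (54327 positions), and sequence from RefSeq GRCm38.p6, whose chromosome lengths hold every peak. Python 3.11.15, pysam 0.24.0, samtools 1.23.1 and matplotlib 3.10.9 were used, and the scripts were tested on simulated data. The samples were grouped by label. With 2 replicates of 1 group, no test was made.

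The members, gene lists and motifs were chosen with earlier results of these data known. Values are given for Slc25a28 and the 3 carriers compared, the 8 highest and 5 lowest promoter signals, the 5 members with most distal regions and those missing from a replicate's list. Other lists are given by their strongest and weakest gene, of which 1 is not reported here. Further members are named for motifs, ratios or ranks seen afterwards. Alternatives covered each replicate's list, the pooled and looser lists, signal, windows, TSS sets and width, and −log10 p was added after seeing the data.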

Additional observations from a re-analysis of the deposited data

How the results depend on the processing

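The number of members with a promoter region stayed at 30 to 36 under all 9 alternatives tried, and at 32 and 35 in the replicates' own lists. The number with a distal region (35) fell to 20 in the list of replicate 1 and 26 in that of replicate 2, and to 17 when regions under the median signal were left out, where 29.3% of all genes still had one and 36.2% of members did. The mean number of distal regions per member (1.64) was 0.83 and 0.915 in the replicates' lists, 0.532 above the median signal, 0.766 within 20 kb, 2.83 within 100 kb and 4.28 in the looser list, and it was above the mean of all genes in each of these. The percentile of the Slc25a37 promoter (77.9) was 66.1 above the median signal, 83.7 in the looser list, 33.1 by width and 82.1 by −log10 p. That of Slc25a38 (26.0) was 19.3 and 24.2 in the replicates' lists, 45.1 in the looser list, 78 by width and 66.2 by −log10 p, and above the median signal it had no promoter region. That of Slc25a39 (66.3) was 63 and 62.6 in the replicates' lists, 66.9 in the pooled list, 75.2 in the looser list, 48.4 above the median signal, 36 by width and 67.2 by −log10 p. Fewer regions enter under the stricter lists by construction, and beyond that the cause was not tested. No paired analysis was possible because there is 1 group. Depth is unknown, so a region that was not called is not shown to be closed.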
